A study of Mus musculus with 6 samples.

Results

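Immediate early genes were examined in smooth muscle cells isolated from the oviduct, in a comparison of Pbrm1 cKO with WT mice. The 10 genes were Fos, Fosb, Jun, Junb, Egr1, Egr2, Egr3, Atf3, Nr4a1 and Ier2. They were found by symbol among the 54232 genes of the count table, and all 10 were among the 15376 genes with enough counts to test. Oviducts came from mated females of 8 to 12 weeks of age at day 2 of pregnancy, and each group held 3 libraries. Per the labels, the tissue was cut up and digested with trypsin, collagenase and dispase for 30 to 45 min at 37 °C, and the cells were plated for 4 h in medium with 12% serum and for 2 h more in 10% serum before lysis. All 6 libraries went through these steps, and no library of undigested tissue or of unplated cells was compared, so what digestion, plating and serum each added to the level of any of these genes was not tested. In the cKO, floxed Pbrm1 was deleted by a cre inserted at the progesterone receptor gene, which acts in any cell that expresses the receptor and not in muscle alone. The labels call the controls WT, a legend of the study's supplement names floxed mice, and neither says whether a library was made from a single animal or from a pool.

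Immediate early genes are switched on within minutes of a stimulus without new protein synthesis. Serum, growth factors, calcium entry, mechanical stretch and stress act through MAP kinases and other signals on factors that already sit at their promoters, such as serum response factor with its ternary complex partners and CREB. FOS and JUN family proteins are basic leucine zipper (bZIP) factors that pair to form AP-1, EGR proteins are zinc finger factors that bind GC-rich sites, ATF3 is a stress-induced bZIP factor that can act as a repressor, NR4A1 is an orphan nuclear receptor, and IER2 is a nuclear protein of the same early wave. Enzymatic tissue dissociation is a known inducer of this set, so their level in cells released by digestion is not taken as their level in the intact oviduct.

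Promoter windows from RefSeq on GRCm38.p6, 250 bases before to 50 bases after an annotated start, were given for 7 of the 10 genes, with 5 starts for Egr2. There was no entry for Egr1, Egr3 and Ier2. The sequences of the 4 genes that had a window and passed the test between groups are shown from 250 bases before the start up to the start. They are written 5′ to 3′ on the strand of the gene, and capitals mark matches to TGACG, the core of the cAMP response element (CRE), to TGACATCA, an AP-1 site of the Jun type, or to the EGR sites GCGTGGGCG and GCGGGGGCG, on either strand. The Fos window was chr12:85473640-85473889 on the plus strand and the windows of the remaining 3 were on the minus strand, at chr7:19310046-19310295 for Fosb, chr4:95052223-95052472 for Jun and chr1:191183334-191183583 for Atf3. For Fos and Jun the RefSeq start was also the start of the gene in the count table, for Fosb it lay 6 bases inside it, and for Atf3 it lay 34706 bases inside a gene annotated from a more distant start.
Fos: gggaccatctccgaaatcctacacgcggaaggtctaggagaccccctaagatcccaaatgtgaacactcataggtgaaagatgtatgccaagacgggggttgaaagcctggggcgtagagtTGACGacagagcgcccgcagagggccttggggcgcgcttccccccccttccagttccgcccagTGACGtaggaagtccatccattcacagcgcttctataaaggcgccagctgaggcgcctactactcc
Fosb: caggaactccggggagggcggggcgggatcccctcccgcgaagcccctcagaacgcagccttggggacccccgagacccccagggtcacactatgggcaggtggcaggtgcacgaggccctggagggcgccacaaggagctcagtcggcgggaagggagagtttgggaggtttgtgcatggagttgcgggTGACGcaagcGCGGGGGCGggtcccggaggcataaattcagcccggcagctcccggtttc
Jun: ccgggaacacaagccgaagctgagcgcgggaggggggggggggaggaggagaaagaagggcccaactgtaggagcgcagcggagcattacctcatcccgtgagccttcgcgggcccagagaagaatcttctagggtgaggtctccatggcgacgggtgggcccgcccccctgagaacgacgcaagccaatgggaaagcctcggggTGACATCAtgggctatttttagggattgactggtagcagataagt
Atf3: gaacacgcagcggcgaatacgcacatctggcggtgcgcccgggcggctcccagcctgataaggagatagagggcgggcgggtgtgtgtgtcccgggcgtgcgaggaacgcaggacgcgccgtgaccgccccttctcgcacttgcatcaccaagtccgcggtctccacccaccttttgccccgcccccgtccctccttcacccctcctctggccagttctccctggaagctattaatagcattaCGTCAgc

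The CRE core TGACG was the motif most often met, in 6 of the 7 genes with a window (all but Jun), against 23.0% of the 27025 genes with a window of the same length. Fos held it at -129 to -125 and at -66 to -62, counted in bases from the start, and Fosb at -60 to -56. Atf3 held it at -7 to -3, on the opposite strand. Fosb also held an EGR site at -50 to -42, and Nr4a1, which held 4 CRE cores, had another at -60 to -52; 3.93% of all genes had such a site. Jun held the TGACATCA site at -45 to -38, found in 4.18% of all genes. A CArG box, the site of serum response factor, lay in 4 of the 5 Egr2 windows, which overlap in part, and in 1.81% of all genes. The full CRE TGACGTCA, which contains the core, and the AP-1 site TGACTCA matched in none of the 7 genes and in 2.03% and 5.95% of all genes. TATAAA or TATATA, searched on the gene strand, was found in Fos at -33 to -28 and in Junb just after its annotated start, and in 14.6% of all genes. That RefSeq start of Junb lay 30 bases before the start of the gene in the count table. The CRE core was present at Fos and at Fosb, and what these matches contribute to the level of either transcript was not tested. A match is a description of letters in the window; elements farther away, such as the distal serum response element known at Fos, lie outside it.

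**Figure D1:**
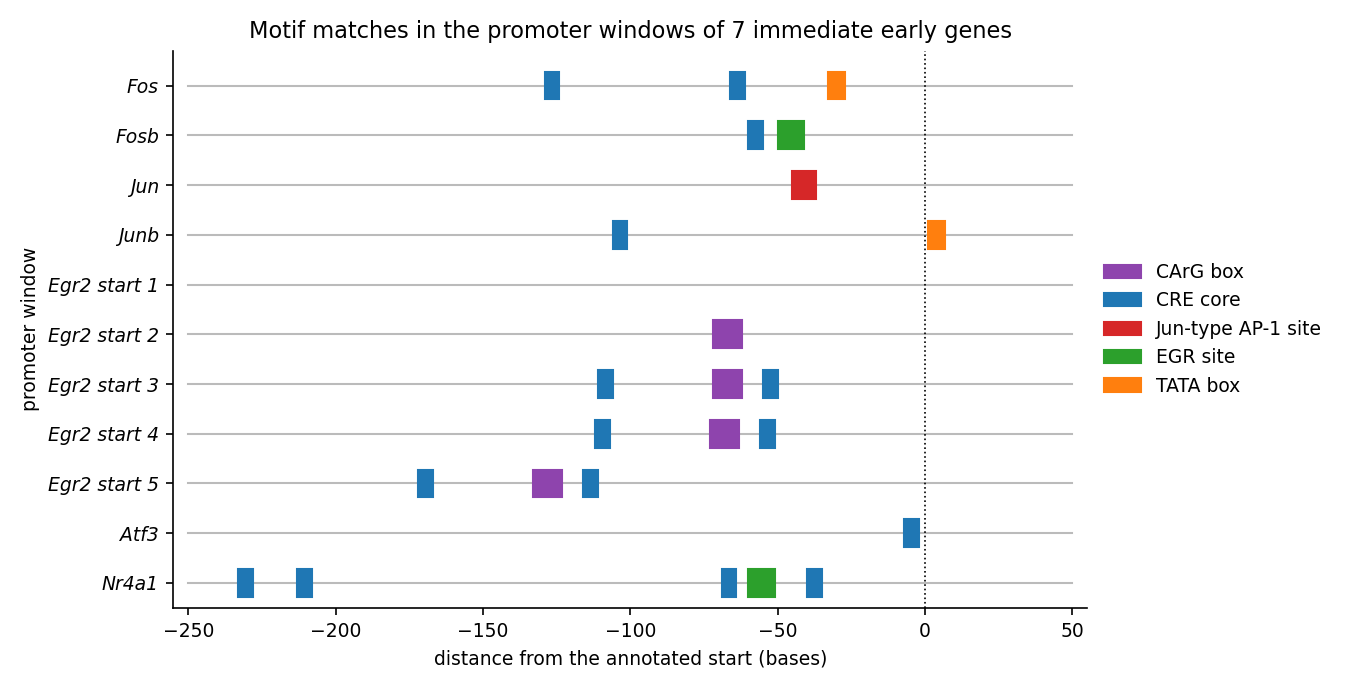
Matches to 5 motifs in the promoter windows of 7 immediate early genes, placed by distance in bases from the annotated start (dotted line), with 1 line for each window and 5 for Egr2. CRE cores (blue) lie in windows of 6 genes, and the CArG box (purple) in windows of Egr2 alone.

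Between 15390818 and 18947947 counts were assigned to genes per library, and a member gene had at least 72 and at most 1986 counts in a library, so all were far above the floor of 3 counts. Together the 10 genes took 0.0468 to 0.0531% of the counts in WT and 0.0537 to 0.0574% in cKO. Pbrm1, the targeted gene, was at 170 to 183 CPM (counts scaled to library size with TMM factors) in WT and at 42.7 to 50.7 CPM in cKO. Of 10 smooth muscle markers all passed the filter on low counts, with a summed level of 3498 to 3570 CPM in WT and 4272 to 4769 CPM in cKO. Of these markers 5 were higher in cKO and 1 was lower. Higher and lower here mean an adjusted p-value under 0.05 in the test described below. By that measure 21.9% of all tested genes were higher in cKO and 21.8% lower. Markers of other cells were present too, and those of most types also differed between the groups. Leukocyte markers (8 of 10 tested, all 8 higher in cKO) summed to 705 to 754 CPM in WT and 1030 to 1114 CPM in cKO, fibroblast markers (6 of 8 higher, 1 lower) to 1273 to 1291 and 2183 to 2345 CPM, and epithelial markers (7 of 10 higher) to 1012 to 1106 and 1188 to 1324 CPM. Cd3e and Cd79a, which mark T and B cells, had too few counts to test. Endothelial markers (1 of 8 higher, 1 lower) summed to 347 to 367 and 283 to 290 CPM, and mesothelial markers (3 of 5 lower) to 161 to 168 and 124 to 131 CPM. The lower endothelial sum followed Kdr, which fell from 182 to 99.4 CPM. Vwf rose from 4.35 to 14.2 CPM, and the remaining endothelial markers were not called. Mitochondrial genes took 7.95 to 8.24% of the counts in WT and 6.88 to 7.81% in cKO, so that each cKO library lay below every WT library. In these bulk libraries a change in the share of a cell type and a change in RNA per cell cannot be told apart, and the part of these shifts in any result below was not tested.

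Of the 10 genes, 6 differed between the groups at an adjusted p-value under 0.05 (edgeR, quasi-likelihood test adjusted over all tested genes), against 43.7% of all genes tested. Fos, Jun, Egr1 and Atf3 were higher in cKO, 4 of 10 against 21.9% of all genes, and Fosb and Egr3 were lower, 2 of 10 against 21.8%. Junb, Egr2, Nr4a1 and Ier2 did not pass. The CPM of the groups did not overlap for 8 of the 10, all but Junb and Ier2, against 53.5% of all genes. The median log2 fold change of the 10 genes was 0.04 and that of all tested genes 0.0016, and the median absolute change was 0.23 against 0.22. The set thus did not move as a block: within the FOS and the EGR family, members changed in opposite directions, and the median size of change was close to that of all tested genes.

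Fos, which must pair with a JUN protein to form AP-1, had the largest change. It was at 35.8, 32.0 and 30.0 CPM in WT replicates 1, 2 and 3 and at 60.7, 54.0 and 62.1 CPM in cKO. The lowest cKO library lay above the highest WT library by more than the spread within either group. The means were 32.6 ± 2.93 and 58.9 ± 4.32 CPM (SD, n = 3), a 1.81-fold rise (log2 fold change 0.85, SE 0.074, edgeR adjusted p = 9.83e-07). Of all tested genes, 8.62% had a larger absolute log2 fold change than Fos. Fos (ENSMUSG00000021250.13) lies on GRCm38 chromosome 12, 85473890 to 85477273, plus strand.

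Fosb, a FOS paralog that also pairs with JUN and has a truncated splice form known for its stability, went the other way. Its level was 17.2, 15.6 and 15.7 CPM in WT and 11.3, 12.6 and 11.6 CPM in cKO. No cKO library reached the lowest WT library. The mean fell from 16.2 ± 0.895 to 11.9 ± 0.687 CPM, or to 73.3% of the WT level, with a log2 fold change of -0.44 (SE 0.089, edgeR adjusted p = 0.00115). The gene counts do not separate its splice forms. Fosb (ENSMUSG00000003545.3) lies on chromosome 7, 19302696 to 19310051, minus strand.

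The JUN genes differed by small amounts. Jun, the main AP-1 partner of FOS, was at 99.0, 93.8 and 89.7 CPM in WT and at 107, 103 and 102 CPM in cKO. The groups did not overlap, but WT replicate 1 came close to the cKO libraries. The rise from 94.2 ± 4.65 to 104 ± 2.33 CPM was 1.11-fold (log2 fold change 0.15, SE 0.050, edgeR adjusted p = 0.0292). It was no longer called without WT replicate 2 (adjusted p = 0.0889), WT replicate 3 (0.134) or cKO replicate 1 (0.105), nor with DESeq2 (0.0709). Jun (ENSMUSG00000052684.4; chromosome 4, 95049034 to 95052222, minus strand) shares 232 exon bases with the antisense gene Junos, which had 11 to 14 counts per library; reads were counted by strand.

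Junb, a JUN paralog with weaker activating strength, was at 117, 93.0 and 85.6 CPM in WT and at 110, 102 and 122 CPM in cKO. WT replicate 1 lay above the lower pair of cKO libraries, so the groups overlapped. Its log2 fold change was 0.17 with a 95% confidence interval of -0.03 to 0.38 (edgeR adjusted p = 0.165). Without WT replicate 1 the value was 0.31 and passed (adjusted p = 0.0071), and without cKO replicate 2 it was 0.24 and passed (adjusted p = 0.0422). It was 0.08 without WT replicate 3 and 0.10 without cKO replicate 3 (adjusted p = 0.561 and 0.441), so single libraries moved it in both directions. Junb (ENSMUSG00000052837.6; chromosome 8, 84974484 to 84978718, minus strand) shares 173 exon bases with Prdx2, which is read from the other strand and had 2859 to 3259 counts per library.

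Among the EGR genes, Egr1 rose, Egr3 fell and Egr2 did not pass the test. Egr1, the family member that serum and growth factors induce most broadly, was at 83.7, 86.9 and 74.4 CPM in WT and at 105, 100.1 and 92.1 CPM in cKO. The ranges were apart by less than the spread inside each group. Its mean rose 1.21-fold, from 81.7 ± 6.53 to 99.1 ± 6.51 CPM (log2 fold change 0.28, SE 0.064, edgeR adjusted p = 0.00315). Its identifier was ENSMUSG00000038418.7.

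Egr3, which calcium and NFAT signals are known to induce in lymphocytes, was the lowest of the 10 genes, per length as well. It was at 7.92, 7.16 and 6.56 CPM in WT and at 4.05, 5.25 and 5.02 CPM in cKO, so the groups were apart. The mean fell from 7.21 ± 0.682 to 4.77 ± 0.638 CPM, or to 66.2% of the WT level, with a log2 fold change of -0.59 (SE 0.137, edgeR adjusted p = 0.00319). Egr3 (ENSMUSG00000033730.4) lies on chromosome 14, 70077203 to 70082614, plus strand.

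Egr2, best known for hindbrain and myelin development, was the steadiest gene of the set. WT libraries held 98.0, 98.7 and 101 CPM and cKO libraries 97.5, 90.6 and 98.0 CPM. The groups came within 1 CPM of each other without overlapping. The log2 fold change was -0.06 with a 95% confidence interval of -0.16 to 0.04 (edgeR adjusted p = 0.349), so the interval left out a change as large as that of Egr1 or Egr3. Egr2 (ENSMUSG00000037868.15) lies on chromosome 10, 67535475 to 67542188, plus strand.

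Atf3, which stress kinases and the integrated stress response induce, was at 18.1, 15.9 and 16.5 CPM in WT and at 23.3, 21.5 and 24.2 CPM in cKO. Every cKO library was above every WT library. The rise from 16.8 ± 1.18 to 23.0 ± 1.35 CPM was 1.37-fold (log2 fold change 0.45, SE 0.081, edgeR adjusted p = 0.00054). Atf3 (ENSMUSG00000026628.13) lies on chromosome 1, 191170296 to 191218039, minus strand.

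Nr4a1 and Ier2 were a little lower in cKO and did not pass. Nr4a1 was at 27.4, 25.8 and 25.8 CPM in WT and at 25.1, 25.1 and 22.8 CPM in cKO, with a log2 fold change of -0.11 and a 95% confidence interval of -0.26 to 0.04 (edgeR adjusted p = 0.216). Ier2 was at 30.8, 28.3 and 25.5 CPM in WT and at 25.9, 25.6 and 23.0 CPM in cKO, with a log2 fold change of -0.18 and an interval of -0.36 to -0.01 (edgeR adjusted p = 0.0864). Ier2 in WT replicate 3 lay just below the upper pair of cKO libraries. Without WT replicate 3 the value of Ier2 was -0.25 and passed (adjusted p = 0.0343), while it was -0.12 without WT replicate 1 and -0.13 without cKO replicate 3 (adjusted p = 0.319 and 0.251). Nr4a1 (ENSMUSG00000023034.7) lies on chromosome 15, 101254269 to 101274795, plus strand, and Ier2 (ENSMUSG00000053560.4) on chromosome 8, 84661331 to 84662852, minus strand.

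**Figure D2:**
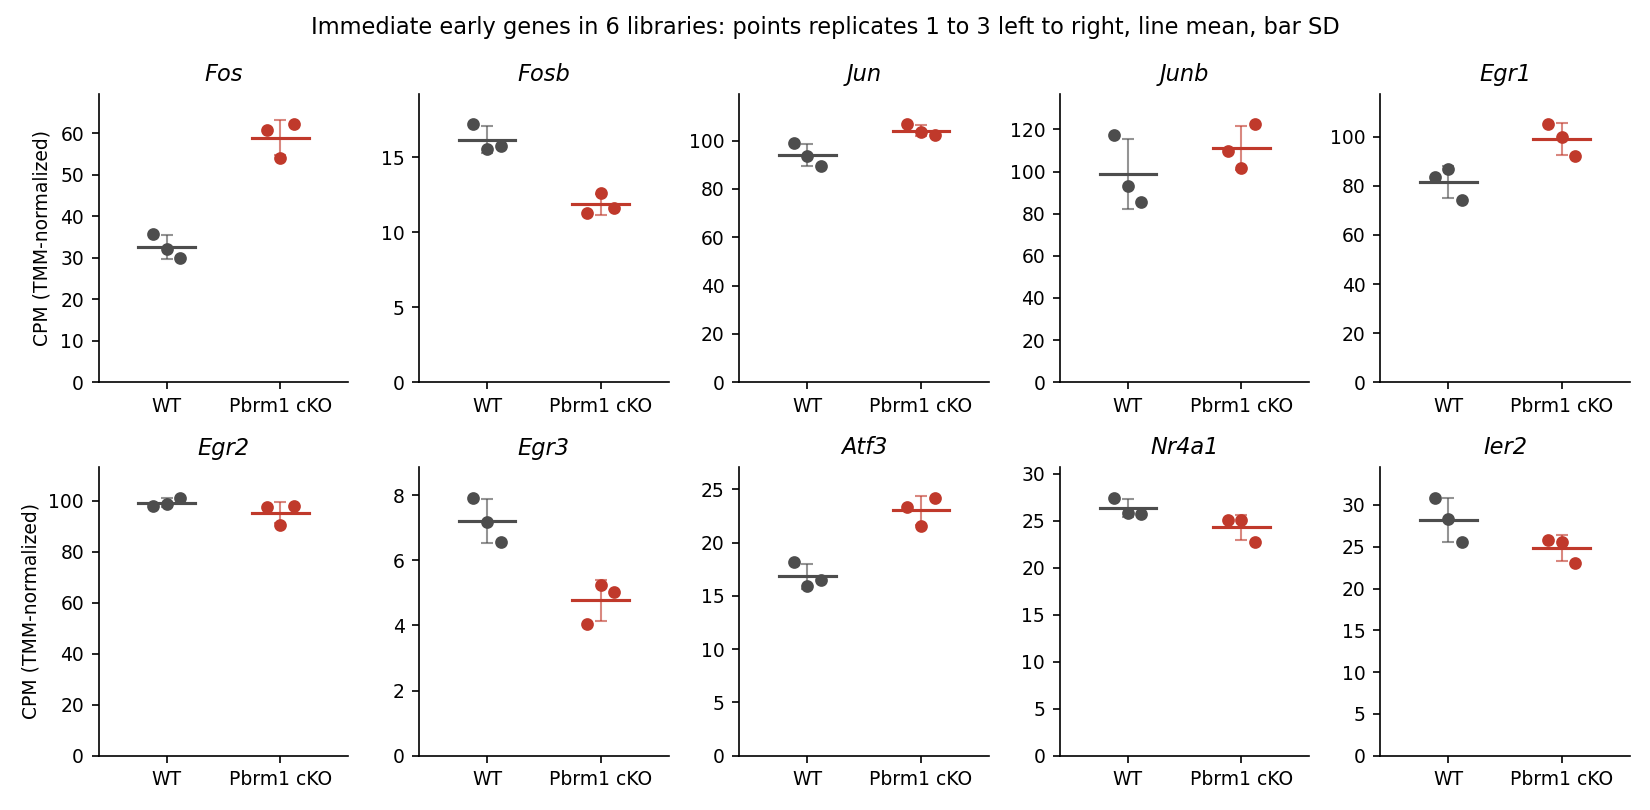
CPM of each immediate early gene in the 3 WT (grey) and 3 Pbrm1 cKO (red) libraries, with replicates 1 to 3 from left to right, the mean as a line and the SD as a bar; each vertical axis starts at 0. Fos at 54.0 to 62.1 CPM in cKO stands clear of its 30.0 to 35.8 CPM in WT, Fosb and Egr3 are lower in cKO, and the groups overlap for Junb and Ier2.

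To compare genes with each other, levels were divided by exon length (RPKM, CPM per kilobase of exon). In WT, Junb had the highest mean at 42.9 RPKM, followed by Jun at 29.5, Egr2 at 29.2, Ier2 at 18.5, Egr1 at 18.2, Fos at 13.8, Atf3 at 7.81, Nr4a1 at 7.50, Fosb at 2.59 and Egr3 at 1.64 RPKM. Neighbours whose libraries overlapped were Jun and Egr2, Ier2 and Egr1, and Atf3 and Nr4a1. In cKO the order was the same but for Fos, which moved past Ier2 and Egr1 to 25.1 RPKM, and for Egr1 at 22.1 RPKM, which stood above Ier2 at 16.3 RPKM; only Fos and Egr1 overlapped there. Among all tested genes, Fos lay at the 75.9th percentile of RPKM in WT and the 86.5th in cKO, Junb at the 92.8th and 93.8th, and Egr3 at the 28.9th and 22.3rd. These genes were thus read at clear levels in every library, from moderate to high for most and low for Fosb and Egr3. The exon length used is that of all annotated exons together, so a gene with long alternative exons, such as Fosb with 6243 bases, gets a lower RPKM than its main transcript would.

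**Figure D3:**
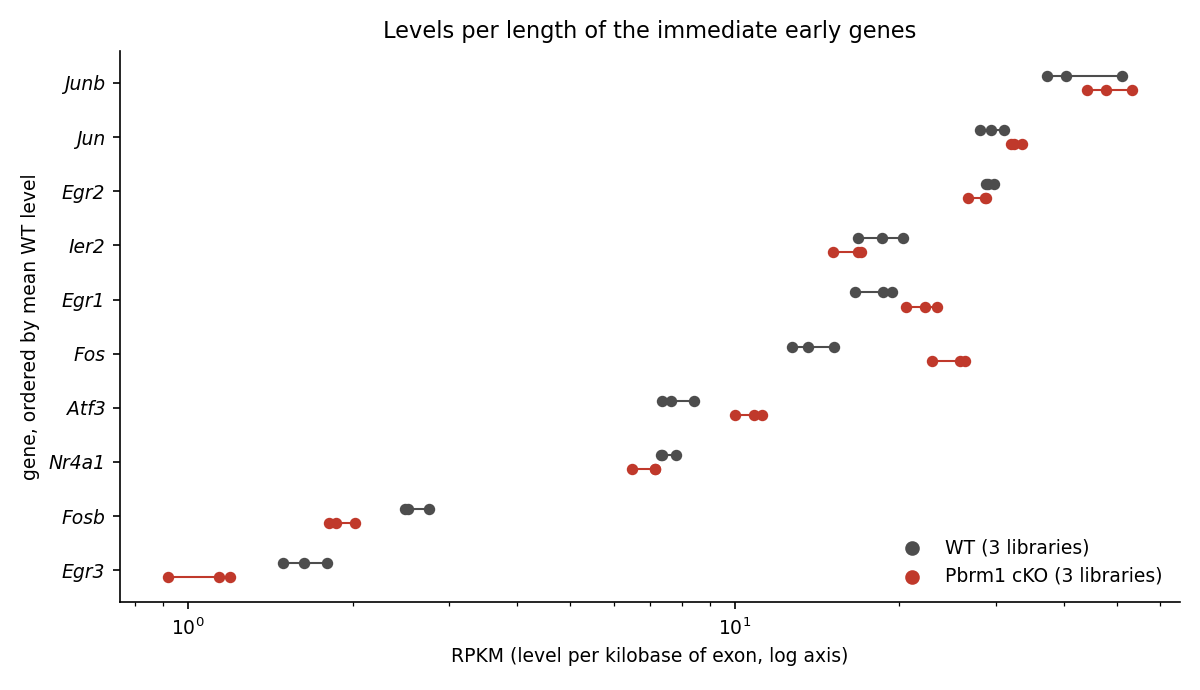
RPKM of the 10 genes on a log axis, ordered by mean WT level, with 3 points per group joined by a line over their range (grey WT, red Pbrm1 cKO). Fos shifts from 12.7 to 15.2 RPKM in WT to 23.0 to 26.4 RPKM in cKO, while Junb remains the highest gene in both groups.

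Ratios of genes within a library do not depend on its depth or scaling. The ratio of Fos to Fosb in RPKM was 5.52, 5.45 and 5.05 in WT and 14.2, 11.4 and 14.2 in cKO, a mean of 5.34 ± 0.253 against 13.3 ± 1.64 (SD, n = 3). The ratio of Egr1 to Egr3 was 10.4, 11.9 and 11.1 in WT and 25.5, 18.7 and 18.04 in cKO, and that of Egr1 to Egr2 was 0.647, 0.667 and 0.557 in WT and 0.817, 0.837 and 0.713 in cKO. For these 3 pairs of paralogs all cKO libraries lay above all WT libraries. The ratio of Jun to Junb was 0.609, 0.728 and 0.756 in WT and 0.700, 0.735 and 0.603 in cKO, and the groups overlapped. Fos was also higher against Jun, with a mean ratio of 0.468 in WT and 0.767 in cKO, Atf3 against Jun from 0.264 to 0.327, and Fos against Nr4a1 from 1.84 to 3.63, without overlap between groups. For each of these 6 ratios the exact two-sided permutation test gave p = 0.1, the smallest that 3 against 3 libraries allow, and for Jun to Junb it gave p = 0.7 (0.117 and 0.7 after adjustment over 7 ratios). Since the smallest possible p is above 0.05, these ratios cannot pass that threshold, and they use the same counts as the tests above.

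**Figure D4:**
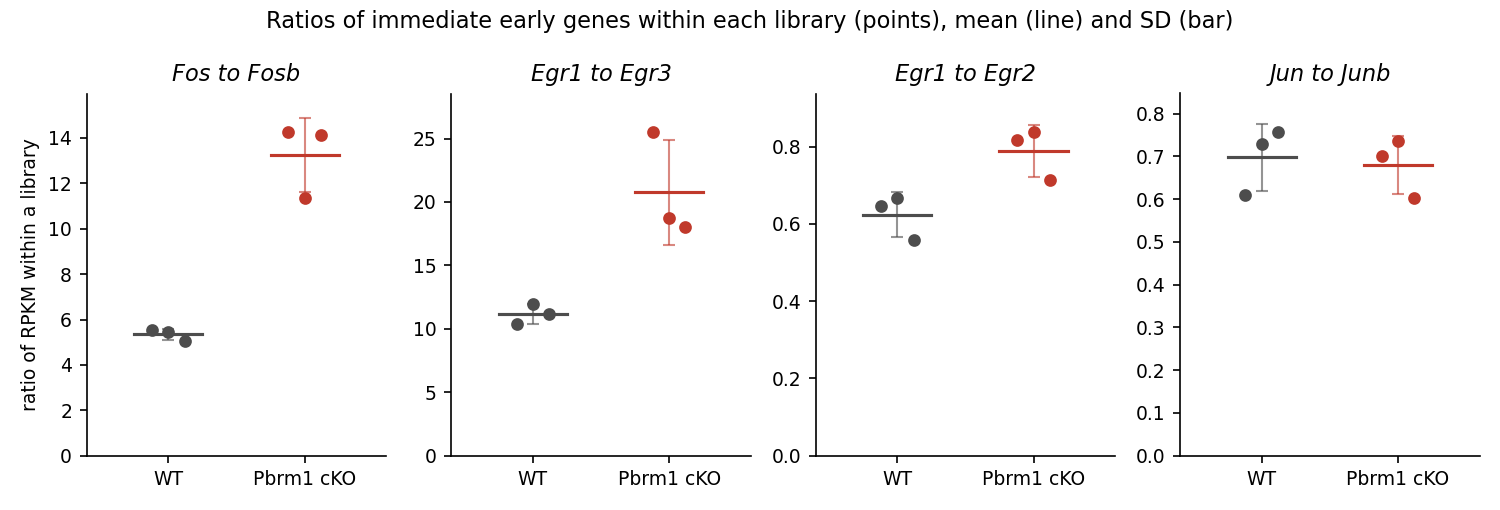
Ratio of RPKM between paralogs within each library for WT (grey) and Pbrm1 cKO (red), with the mean as a line and the SD as a bar; vertical axes start at 0. Fos to Fosb goes from 5.05 to 5.52 in WT to 11.4 to 14.2 in cKO, and Jun to Junb overlaps between groups.

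Replicates differed by amounts that varied between genes. The within-group SD on the log2 scale was largest for Junb at 0.19 and Egr3 at 0.17, and smallest for Egr2 at 0.05 and Jun at 0.06. The median over the 10 genes was 0.10, and that over 11023 genes with a mean of at least 5 CPM was 0.08. In WT, replicate 1 was the highest library for 8 of the 10 genes (all but Egr1 and Egr2) and replicate 3 the lowest for 7, while over all tested genes they were so for 33.8% and 32.4%. Among 49 other immediate early genes WT replicate 1 was the highest for 28 and WT replicate 3 the lowest for 24. Of 15 heat shock genes WT replicate 1 was the lowest for 9, against 34.2% of all tested genes. WT replicate 3 was the highest for 9 of them, against 35.6%. In cKO no library led, with replicates 1, 2 and 3 the highest for 3, 3 and 4 of the 10 genes. Among the 49 other immediate early genes cKO replicate 2 was the lowest for 27, against 36.6% of all tested genes. Among the 6 called genes, cKO replicate 2 was nearest to WT for 4, and among all called genes for 56.6%. Whether digestion lasted equally long for each library is not in the labels, which give a range, so its part in the order of the libraries was not tested.

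Other genes of the same wave also changed in both directions. Of 50 further immediate early genes 49 were tested (Egr4 was not), and 15 rose and 10 fell, 51.0% called against 43.7% of all tested genes, with a median log2 fold change of 0.004. Ptgs2, the inducible cyclooxygenase of prostaglandin synthesis, fell to 659 ± 151 CPM in cKO from 1828 ± 25.5 CPM in WT (SD, n = 3; log2 fold change -1.47, edgeR adjusted p = 2.56e-07). Socs3, an inhibitor of cytokine signaling, rose from 23.5 to 56.8 CPM (log2 fold change 1.27), the cytokine Il6 from 4.32 to 10.3 CPM (1.25) and the transcription factor Cebpd from 6.21 to 14.2 CPM (1.19). Cebpd, Il6, Socs3 and Ptgs2 were each nearest to WT in cKO replicate 2. The remaining AP-1 genes stayed outside the threshold: Fosl1 (log2 fold change -0.12), Fosl2 (-0.04) and Jund (-0.21) had adjusted p-values of 0.198, 0.525 and 0.102. Their names were chosen after their values were seen, to complete the FOS and JUN families. In the NR4A family, Nr4a2 fell to 9.91 from 19.2 CPM, with a log2 fold change of -0.94 (edgeR adjusted p = 9.68e-05), and Nr4a3 had -0.23 (adjusted p = 0.305); these genes were also chosen after seeing their values.

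Of 18 upstream transcription factors and coactivators 3 rose and 5 fell, with a median log2 fold change of -0.07; the share called, 44.4%, was close to the 43.7% of all tested genes. Elk3, a ternary complex factor, was lower in cKO, at 126 against 152 CPM (log2 fold change -0.28), as was Mrtfa, a coactivator of serum response factor, at 75.2 against 90.1 CPM (-0.26). Mef2c rose from 13.3 to 16.8 CPM (0.34) and the CREB coactivator Crtc2 from 15.01 to 18.01 CPM (0.26). Mef2c and Mrtfa were not called without WT replicate 1 (adjusted p = 0.0768 and 0.0505), and Crtc2 lost its call in 6 of 15 alternative fits. Of 26 genes of the kinase cascades 5 rose and 7 fell (46.2% called against the same 43.7%), with a median of -0.04. The p38 kinase kinases went opposite ways, Map2k6 up from 1.86 to 5.20 CPM (log2 fold change 1.48) and Map2k3 down from 148 to 109 CPM (-0.44), while Egfr, the epidermal growth factor receptor, rose from 386 to 580 CPM (0.59) and the kinase Rps6ka5 from 5.83 to 8.36 CPM (0.52).

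Some early genes encode inhibitors of the signals that induce them. Of 22 genes listed as feedback regulators 8 rose and 4 fell, 54.5% called, with a median log2 fold change of 0.09. Of all tested genes 21.9% rose and 21.8% fell. The lists share some genes: Dusp1 and Sik1, for example, were also counted among the further immediate early genes above. Spry1, an inhibitor of receptor tyrosine kinase signaling, was at 21.3, 21.6 and 19.7 CPM in WT and at 39.4, 39.1 and 37.3 CPM in cKO (log2 fold change 0.89). Dusp1, the phosphatase that switches off p38 and JNK, rose from 46.9 to 79.7 CPM (0.76), Spred3 from 13.1 to 17.5 CPM (0.41) and Sik1 from 57.6 to 76.1 CPM (0.40). The EGR corepressors Nab1 and Nab2, named after their values were seen because they bind EGR proteins, had log2 fold changes of 0.10 and -0.03 (adjusted p = 0.156 and 0.659).

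Among 17 bZIP genes that can pair with FOS, JUN or ATF3, 16 were tested (Batf3 was not), 4 rose and 1 fell, again beside 21.9% and 21.8% of all tested genes, with a median of 0.08. The share called was 31.25%, below the 43.7% of all tested genes. Maff rose from 52.3 to 78.0 CPM (log2 fold change 0.58), Nfe2l2, the antioxidant response factor NRF2, from 124 to 158 CPM (0.34) and the stress factor Ddit3 from 10.7 to 13.4 CPM (0.32), the last not called without WT replicate 3 (adjusted p = 0.0575). Batf, a factor of immune cells, fell from 2.50 to 1.03 CPM (-1.28). Of 23 genes often named as AP-1 or EGR targets, 9 rose and 9 fell, with a median of 0.02. Cxcl1, a neutrophil chemokine, rose from 4.65 to 20.7 CPM (log2 fold change 2.15), the protease Mmp3 from 20.8 to 76.0 CPM (1.86) and the adhesion molecule Icam1 from 62.2 to 117 CPM (0.91). Il11, a cytokine, was at 210, 191 and 187 CPM in WT and at 44.4, 117 and 47.5 CPM in cKO (-1.48), with cKO replicate 2 apart from the other two and a log2 fold change of -2.09 without it. Of the targets 78.3% were thus called, with as many up as down, against 43.7% of all tested genes. Over these 6 lists and the heat shock genes described next, 157 genes were counted once each, 155 were tested, 45 rose and 37 fell.

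**Figure D5:**
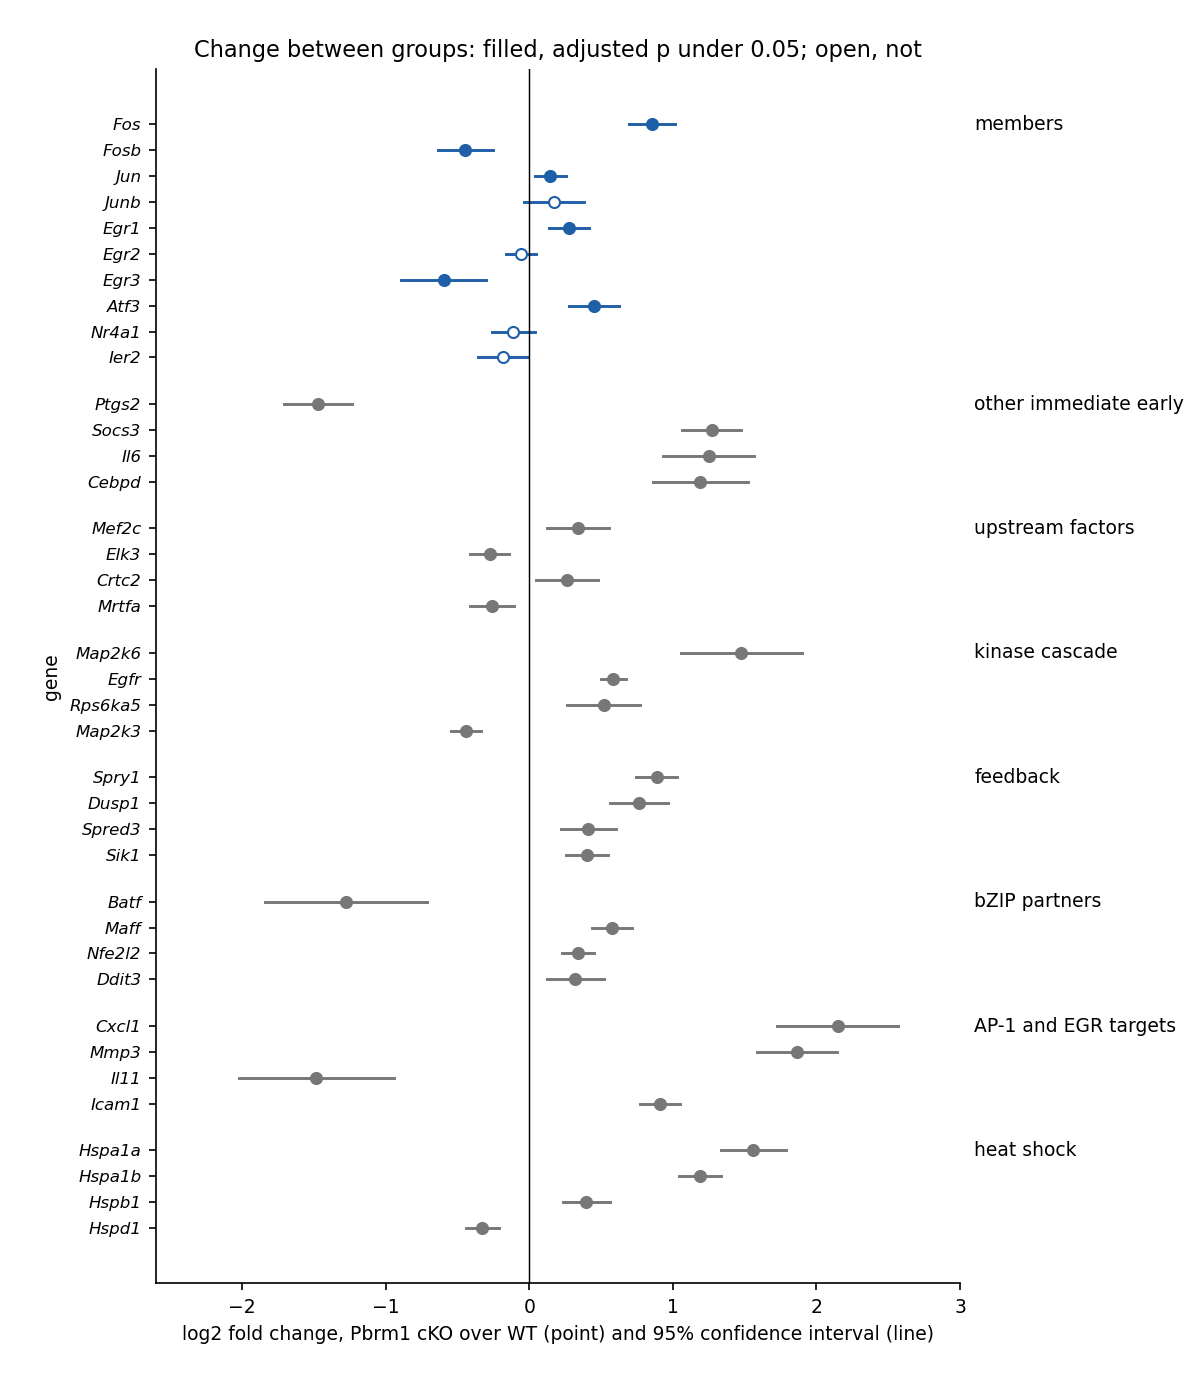
Log2 fold change of cKO over WT (points) with 95% confidence intervals (lines) for the 10 immediate early genes (blue) and for up to 4 genes named from each fixed list (grey); filled points have an edgeR adjusted p under 0.05. Fos at 0.85 is the largest change among the 10, which lie between -0.59 and 0.85, while genes such as Ptgs2 at -1.47 and Cxcl1 at 2.15 lie outside that range.

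Heat shock genes, which warming and dissociation also induce, were read beside the members. Of 15 genes 5 rose and 2 fell, 46.7% called against 43.7% of all genes, with a median log2 fold change of 0.04. The stress-inducible pair Hspa1a and Hspa1b was higher in cKO. Hspa1a was at 13.9, 13.5 and 10.9 CPM in WT and at 37.2, 33.4 and 42.9 CPM in cKO (log2 fold change 1.56, SE 0.106, edgeR adjusted p = 1.14e-07). Hspa1b was at 37.3, 35.1 and 34.2 CPM in WT and at 81.9, 73.7 and 87.9 CPM in cKO (1.19). Their transcripts were 99.2% identical over 2201 bases, so how the reads divide between them is uncertain, whereas no transcript of the 10 immediate early genes had a copy in another gene at 95% identity over 100 bases. Hspb1 rose from 50.1 to 66.1 CPM (0.40), the mitochondrial chaperonin Hspd1 fell from 519 to 414 CPM (-0.33), and Dnajb1, chosen after its value was seen as a classic heat shock target, had a log2 fold change of 0.00 (adjusted p = 0.95). Of the called members, Fos, Jun, Egr1 and Atf3 were higher in cKO, while Fosb and Egr3 were lower. Of the called heat shock genes, Hspa1a, Hspa1b, Hspa8, Hspb1 and Hspb8 were higher, while Hspd1 and Hsph1 were lower. Hspa8 passed narrowly (log2 fold change 0.12, edgeR adjusted p = 0.04999), and the groups overlapped for Hsph1. The part of dissociation in these differences was not tested, since every library was digested.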

How the data were processed

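RNA-seq was performed on 6 libraries, 3 WT and 3 Pbrm1 cKO. The authors deposited whole-number read counts per gene, made per the file header with featureCounts 1.6.4 in reverse-stranded mode with GENCODE M18; submitters' notes name cutadapt, HISAT2 and GRCm38.p5. By default, reads mapping to several places were left out, so near-identical genes lose reads. Every column matched a sample by title.

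The test was the two-sided quasi-likelihood test of edgeR 4.0.16 (R 4.3.3) on TMM-scaled counts after filterByExpr, adjusted by Benjamini-Hochberg over all 15376 genes passing the filter, threshold 0.05. The log2 fold change divided by the root of F gave the SE. In a simulation of these libraries the test recovered 192 of 200 changed genes among 15178, with 10 false calls. How recovery depends on the size of a change, or on a larger share of changed genes, was not tested. Recovery at changes as small as those of Jun, Egr1, Atf3 and Fosb was thus not tested either. DESeq2 1.42.0 and limma-voom 3.58.1, other scalings, filters and thresholds, the replicate block and leaving out each library were alternatives. Symbols, transcripts and copies (BLAST 2.17.0) used GENCODE M21. Named genes were the 10 members, Pbrm1 and, from each list, up to 4 genes with adjusted p under 0.05 and a mean of at least 1 CPM, by size of change. The members and lists were chosen with earlier results of these data known. Labels do not say that libraries were separate animals, so p-values measure the spread between these libraries, which may be technical. Counts carry no molecular identifiers, and the floor of 3 counts (0.159 to 0.193 CPM) covers counting error only.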

Additional observations from a re-analysis of the deposited data

How the results depend on the processing

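Fos, Fosb, Egr1, Egr3 and Atf3 were called in all 15 alternative fits, Egr2 and Nr4a1 in none, and no member changed sign; their log2 fold changes ranged from 0.80 to 0.92, -0.49 to -0.40, 0.21 to 0.33, -0.67 to -0.49 and 0.41 to 0.51. Jun lost its call in 5 fits (adjusted p up to 0.134), with DESeq2, with no filter and without WT replicate 2, WT replicate 3 or cKO replicate 1. Junb gained one in 3, with no filter (0.0174), without WT replicate 1 and without cKO replicate 2 (down to 0.0071), and Ier2 in 2, with the replicate block and without WT replicate 3 (0.0343). Requiring a log2 change over 1 as well as an adjusted p under 0.05 left 0 members, 11 of the list genes and 998 of all genes. At an adjusted p under 0.01 Jun was not called and 5 members were. Leaving out each library in turn gave 5 to 7 called members, 67 to 88 called list genes and 5532 to 7054 genes in all, with a member median of 0.0157 to 0.0683. The cause of these shifts was not tested.

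With the replicate number as a block (replicate block), 7 members, 84 list genes and 6908 genes were called, 6617 of which were called without the block too, and Ier2 passed with an adjusted p of 0.0411. The deviations of same-numbered libraries from their group means had correlations of -0.05, 0.08 and 0.18 over 11023 genes. With 3 libraries per group, these correlations cannot tell whether same-numbered libraries shared more than a number. Groups of 3 libraries cannot give an exact permutation p under 0.1, and the call of a change as small as that of Jun varied with the libraries kept and with the method.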
